A study of Rattus norvegicus with 18 samples.

Results

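Ero1a, Ero1b, Prdx4, Qsox1, Gpx7 and Gpx8, genes of oxidases and peroxidases of the secretory pathway, which begins at the endoplasmic reticulum (ER), were followed in a rat insulinoma line that makes a misfolded insulin. Their 9 probe sets were those annotated by the array platform to exactly 1 of the 6 genes, with Ero1l and Ero1lb counted as Ero1a and Ero1b, out of 31042 probe sets on the array and 14217 genes with a probe set of their own. The cells were clone #4S2, a single clone of the beta cell line INS-1, stably carrying a doxycycline-inducible fusion of mouse proinsulin 2 with the C96Y mutation to GFP. The clone had been sorted for its brightest GFP cells after induction, and every group, untreated controls included, carried the transgene and the Tet-On activator and, in the culture methods, was kept with geneticin and hygromycin in a medium with β-mercaptoethanol. There were 6 groups of 3 independent experiments, harvested at 24 h, at 48 h and at 5 days, each time without and with doxycycline at 2 µg/ml, with 1 Affymetrix array each and 18 arrays in all. The labels hold no doxycycline-treated line without the transgene, so doxycycline itself and the mutant proinsulin cannot be told apart in these arrays. The study states, without showing the data, that this dose left Grp78 (Hspa5) and Chop (Ddit3) unchanged in parental INS-1 cells, as mRNA and protein. It names none of the member genes there.

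Disulfide bonds are put into new secretory proteins by protein disulfide isomerase (PDI), which is reoxidised by the flavoenzymes ERO1α and ERO1β, encoded by Ero1a and Ero1b. Each turn of ERO1 passes electrons to oxygen and makes hydrogen peroxide. Peroxiredoxin 4 (Prdx4) and the glutathione peroxidases 7 and 8 remove that peroxide and can use it to oxidise PDI in turn, while the sulfhydryl oxidase QSOX1 makes disulfides directly in client proteins. ERO1β is the form known to be abundant in the pancreas and in beta cells, Ero1a is known as a hypoxia-inducible gene, and both are linked to the unfolded protein response (UPR), the programme that raises ER chaperones when folding fails. The C96Y mutation takes away a cysteine of a disulfide between the insulin chains and leaves its partner unpaired.

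The 9 beta cell markers with a probe set (Ins1, Ins2, Iapp, Pdx1, Nkx6-1, Mafa, Neurod1, Slc2a2 and Pcsk2) lay above the median of all values in 18 of 18 arrays. The 5 acinar and ductal markers and the 4 fibroblast, endothelial and leukocyte markers did so in 0 arrays, as did Sst and Ppy, while the glucagon gene Gcg did in 15. The summed signal of the beta cell markers was 93727 to 100499 in controls and 85523 to 93320 with doxycycline at 24 h, and 96003 to 102861 against 81646 to 90996 at 48 h. The summed signal of Gcg, Sst and Ppy was 414 to 2444 against 190 to 1200 at 24 h and 1539 to 2148 against 333 to 373 at 48 h. The part of these shifts in the values below was not tested, and in RNA from whole cultures fewer cells that express a gene and less RNA per cell cannot be told apart.

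The 5 day arrays carried 2 irregularities. Of the 30 probe sets higher with doxycycline at 24 h, 30 also had a positive doxycycline to control ratio in each 48 h experiment and in experiment 3 of 5 days, and 25 in experiment 2, but 0 of 30 were positive in experiment 1. Sdf2l1, an ER co-chaperone gene, had log2 ratios of -2.91, 3.18 and 1.66 in these 3 experiments. The pair labelled 5 days replicate 1 therefore went against its labels, and 5 day values are given as labelled and with that pair exchanged. GAPDH probe sets from the 3' and 5' ends, which report on RNA quality, stood in a ratio of 2.91 in the library labelled doxycycline 5 days replicate 2 and of 1.05 to 1.19 elsewhere (17 arrays).

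Ero1b rose with doxycycline at 24 h and 48 h, by 1.74-fold and 1.47-fold, and was the only one of the 4 member genes tested that passed the test. At 24 h its normalized signal (probe set 1382944_at) was 1532, 1931 and 1978 in experiments 1, 2 and 3 of the controls and 2675, 3538 and 3264 in the treated cultures. At 48 h it was 2128, 2314 and 2618 in controls and 2959, 3555 and 3914 with doxycycline. At both times the lowest treated culture lay above the highest control, which held for 5.03% of all 15521 probe sets tested at 24 h and 11.3% at 48 h (3.72% and 10.8% in the opposite direction). The log2 ratios within experiments were 0.80, 0.87 and 0.72 at 24 h and 0.48, 0.62 and 0.58 at 48 h, a spread far smaller than the change. In limma with the experiment as a block, the log2 fold change was 0.80 at 24 h (SE 0.07, 95% CI 0.62 to 0.98, Benjamini-Hochberg adjusted p = 0.0439) and 0.56 at 48 h (SE 0.07, 95% CI 0.37 to 0.75, adjusted p = 0.0347). Of all probe sets tested, 0.193% were called higher and 0.0129% lower at 24 h, and 2.33% higher and 1.19% lower at 48 h. Ero1b ranked 70 at 24 h and 400 at 48 h among their log2 fold changes.

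These calls lay close to the threshold. At 24 h the adjusted p (limma, or the methods' t-test in 1 setting) stayed under 0.05 in 4 of 13 alternative settings and at 48 h in 4 of 13, with the fold change between 0.66 and 0.84 and between 0.53 and 0.72 on the log2 scale, so the direction held in all of these while the call did not. Without replicate 1, 2 or 3 the adjusted p was 0.246, 0.228 and 0.184 at 24 h and 0.146, 0.137 and 0.147 at 48 h, and in limma without the block it was 0.329 and 0.112.

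**Figure D1:**
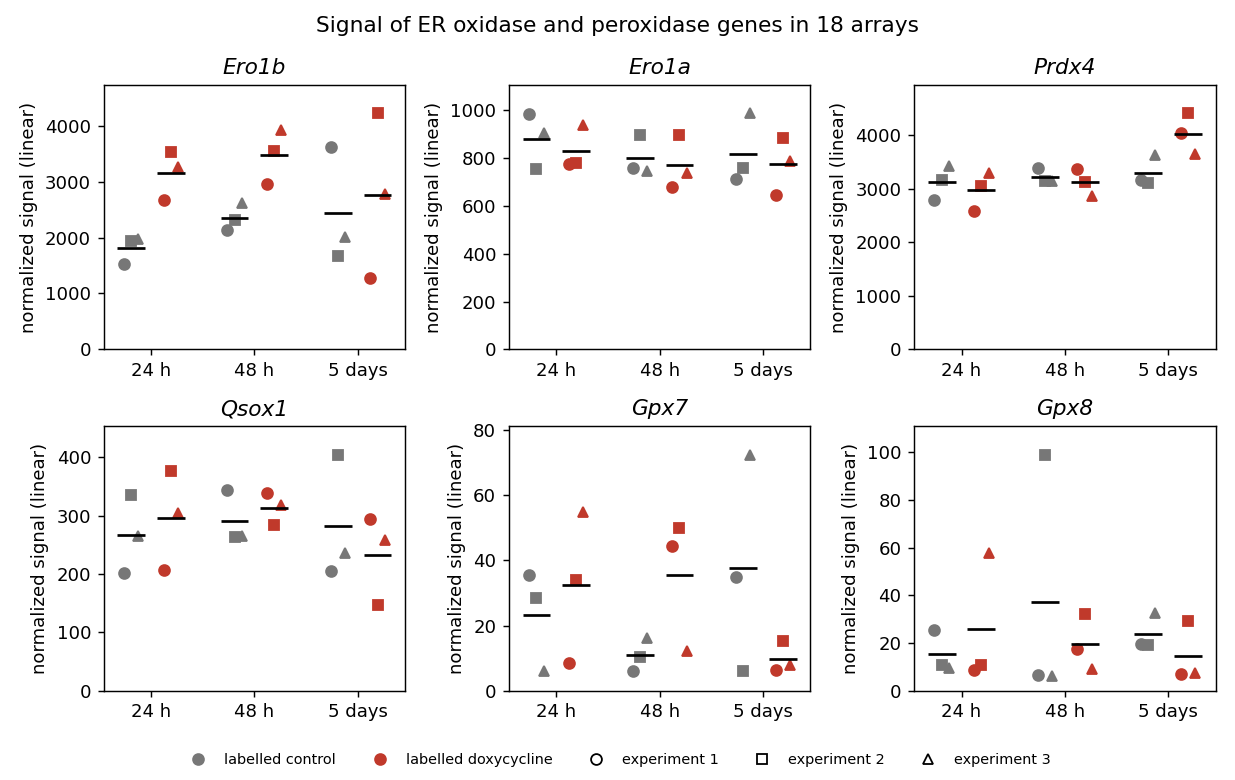
Normalized signal on a linear scale (y axis) of the probe set representing each gene by time of harvest and label (x axis), with 1 point per array, symbols for the 3 experiments and a bar at each group mean. For Ero1b the treated cultures of 24 h (2675 to 3538) and 48 h (2959 to 3914) sit above their controls (1532 to 1978 and 2128 to 2618), Ero1a and Prdx4 overlap at these times, and Gpx7 and Gpx8 stay under 100.

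Untreated cultures were compared between times too. For Ero1b the 48 h controls lay above the 24 h controls without overlap, a pattern found with 48 h higher in 3.22% of probe sets and with 48 h lower in 3.75%, and the difference was 0.38 on the log2 scale (limma, SE 0.15, 95% CI 0.04 to 0.72, unadjusted p = 0.0310, adjusted p = 0.999). No probe set passed the adjusted threshold in this comparison, and 389 had an unadjusted p under 0.05. The doxycycline effect on Ero1b was smaller at 48 h than at 24 h by an estimated 0.24 on the log2 scale, which did not pass (limma contrast, difference of -0.24, SE 0.09, 95% CI -0.46 to -0.02, unadjusted p = 0.0371, adjusted p = 0.735), and here too the number of probe sets called was 0, with 1036 at an unadjusted p under 0.05. By group means of normalized signal as labelled, Ero1b ran from 1814 (24 h control) through 2353 (48 h control), 2431 (5 days control), 2756 (5 days doxycycline) and 3159 (24 h doxycycline) to 3476 (48 h doxycycline). In that order the 24 h and 48 h controls did not overlap and the other neighbours did. With the pair of 5 days replicate 1 exchanged, the order ran from 1649 (5 days control) through 1814, 2353, 3159 and 3476 for the 24 h and 48 h groups to 3538 (5 days doxycycline), and the 48 h controls overlapped neither the 24 h controls nor the 24 h doxycycline cultures.

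At 5 days the arrays with a control label gave 3619, 1665 and 2007 for Ero1b, and those with a doxycycline label 1273, 4222 and 2773. The groups overlapped, with the highest control and the lowest treated value both in the pair that went against its labels. As labelled, the log2 ratios were -1.51, 1.34 and 0.47 and the log2 fold change was 0.10 (limma, SE 0.56, 95% CI -1.32 to 1.53, adjusted p = 0.985). With that pair exchanged, the log2 fold change was 1.11 in limma on the 5 day arrays alone (SE 0.25, 95% CI 0.44 to 1.77, adjusted p = 0.715) and the same size in all 18 arrays (SE 0.17, 95% CI 0.71 to 1.5, adjusted p = 0.0167), where 1.83% of probe sets were called higher and 0.908% lower. Leaving out the pair with the high GAPDH ratio as well gave 0.99 (adjusted p = 0.0407). Ero1b is itself 1 of the 30 probe sets by which the pair was judged, so its direction after the exchange follows in part from its own ratio of -1.51, and these p-values are a description from which no call is read. As labelled, 0% of probe sets tested were called at 5 days in either direction, 385 probe sets had an unadjusted p under 0.05, and among members this was 1 probe set, the dimmer one of Ero1a.

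A second Ero1b probe set, 1377470_at, gave 6 to 67 signal units over the 18 arrays, lay in the lower part of the array that was not tested, and reached the floor in 2 arrays. Its log2 ratios were 1.41, 0.04 and 0.13 at 24 h and -0.41, 0.58 and 2.44 at 48 h, too scattered at these levels to set beside the first.

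The promoter of Ero1b is shown because it holds the ER stress element, the sequence through which ATF6 and XBP1, transcription factors of the UPR, are known to act on chaperone genes. It was searched as CCAAT, any 9 bases, then CCACG on both strands, in windows from 250 bases before to 50 bases after the start of each gene in RefSeq (GRCr8). The 250 bases before the start are given below for Ero1b (chr17:92941432-92941681, plus strand) and for Hspa5, the gene of the chaperone BiP and the best known carrier of the element (chr3:38452766-38453015, plus strand), with the fixed parts of the element in capitals. In Ero1b the element reads on the minus strand, so that the reverse complement of CCACG comes first:
Ero1b: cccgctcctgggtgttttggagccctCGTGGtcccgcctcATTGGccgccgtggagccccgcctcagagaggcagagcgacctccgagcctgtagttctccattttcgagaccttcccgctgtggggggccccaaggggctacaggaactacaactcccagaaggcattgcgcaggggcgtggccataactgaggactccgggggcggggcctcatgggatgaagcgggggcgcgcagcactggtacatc
Hspa5: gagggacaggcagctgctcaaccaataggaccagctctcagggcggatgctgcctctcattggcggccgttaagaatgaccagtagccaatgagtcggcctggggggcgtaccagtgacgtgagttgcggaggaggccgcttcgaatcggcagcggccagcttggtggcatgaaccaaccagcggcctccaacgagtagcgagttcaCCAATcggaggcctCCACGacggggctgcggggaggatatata

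The element lay 224 to 206 bases before the start in Ero1b (chr17:92941458-92941476) and 43 to 25 bases before it in Hspa5 (chr3:38452973-38452991). Of 33469 windows searched, 22 held it (0.0657%), in 21 genes, and 14 of these genes had a tested probe set. In limma, 3 of the 14 rose at 24 h (Creld2, Dnajc3 and Ero1b) and 7 at 48 h (these with Calr, Canx, Hsp90b1 and Hspa5), none fell, and the other 7 had log2 fold changes of -0.42 to 0.37 at 48 h. Over all 7678 tested genes with a window, 0.221% rose at 24 h and 2.63% at 48 h. The element was first described on ER chaperone promoters such as that of Hspa5, so these genes are not independent of it, and a match of letters is no evidence of binding. RefSeq may give Ero1b further starts, which were not searched.

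Of the genes whose ratios were most like those of Ero1b, Hspa5 and Ostc had a window, and that of Ostc held no match to the ER stress element, its CCACG part or the UPR element, while that of Pdia6 was not analysed here. Among the other members, the windows of Prdx4, Qsox1 and Gpx7 held no match to the ER stress element. Those of Ero1a and Gpx8 were not analysed here. The shorter CCACG part, found in 31.6% of windows, occurred 3 times in Ero1b, 1 of these inside the element, 3 times in Prdx4 and 0 times in Qsox1 and Gpx7. The UPR element TGACGTGG (0.595% of windows), the core TGACGT that it contains (7.94%) and the C/EBP-ATF element TGATGNAAT (1.09%) were in none of the 4. Of the hypoxia cores, ACGTG (19.2% of windows) occurred 3 times in Prdx4 and GCGTG (29.7%) was present in Ero1b, Qsox1 and Gpx7, while the NRF2 element TGACNNNGC (12.1%) was matched in Prdx4 alone. In Prdx4, ACGTG and CCACG overlapped at 2 places. At 1 of these, 131 to 124 bases before the start, the bases read the same on both strands. Each motif is counted once per strand there, so the 3 matches of each lie at 2 places.

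Ero1a, the paralog, did not pass the test at any time. Its brighter probe set, 1389297_at, gave 984, 753 and 906 in controls and 777, 779 and 939 with doxycycline at 24 h, and 759, 898 and 746 against 678, 897 and 739 at 48 h. Treated and control cultures overlapped at both times. The log2 fold change was -0.08 at 24 h (limma, SE 0.10, 95% CI -0.34 to 0.18, adjusted p = 0.769) and -0.06 at 48 h (SE 0.08, 95% CI -0.26 to 0.14, adjusted p = 0.677). Experiment 1 had the lowest ratio at both times, -0.34 and -0.16, and without it the 24 h value was 0.05. At 5 days the arrays with a control label gave 713, 756 and 987 and those with a doxycycline label 647, 885 and 788, again overlapping, with a log2 fold change of -0.08 as labelled (SE 0.19, adjusted p = 0.961) and 0.01 with the first pair exchanged.

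The dimmer Ero1a probe set, 1387964_a_at, gave 162 to 196 in controls and 177 to 221 with doxycycline at 24 h, and 164 to 216 against 146 to 182 at 48 h. Its log2 fold changes were 0.14 and -0.19 in limma (adjusted p = 0.432 and 0.447), opposite in sign to the brighter set at 24 h. At 5 days it was lower under all 3 doxycycline labels (137, 113 and 116, against 179, 242 and 141 in controls) without overlap, which 2.76% of probe sets showed in that direction. Limma gave -0.59, which did not pass (SE 0.23, adjusted p = 0.935), the lowest ratio, -1.10, came from the library with the high GAPDH ratio, and the value with the first pair exchanged was -0.33. The part of RNA quality in this value was not tested.

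The log2 ratios of the paralogs were compared pair by pair. In each of the 6 pairs of 24 h and 48 h the Ero1b log2 ratio exceeded that of Ero1a, by 1.15, 0.82 and 0.67 at 24 h and by 0.64, 0.62 and 0.59 at 48 h. The mean difference of log2 ratios was 0.749 ± 0.210 (SD, n = 6), positive in 6 of 6, with p = 0.03125 in a two-sided exact sign-flip permutation test, the smallest that 6 pairs allow. Leaving out any 1 pair gave 0.670 to 0.780, with p = 0.0625 in the same exact test, the smallest for 5.

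**Figure D2:**
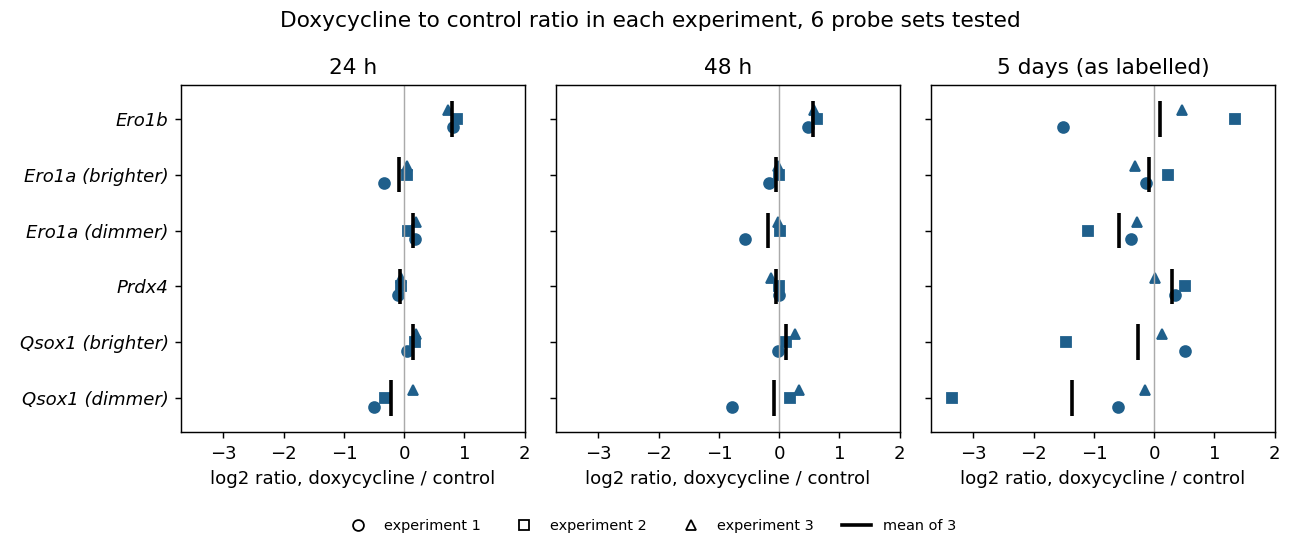
Log2 ratio of doxycycline to control (x axis) in each of 3 experiments for the 6 member probe sets tested (y axis), one panel per time, with symbols for the experiments and a bar at the mean of 3. Ero1b stands to the right of 0 in all 6 ratios of 24 h and 48 h (0.48 to 0.87). The other probe sets spread from -0.78 to 0.32 there, both ends being the second Qsox1 probe set. At 5 days the ratios spread from -3.36 to 1.34.

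Prdx4, the ER peroxiredoxin, did not pass the test at any time. Its signal (1387891_at) was 2795, 3161 and 3432 in controls and 2593, 3052 and 3299 with doxycycline at 24 h. At 48 h it was 3396, 3150 and 3142 against 3381, 3126 and 2860. The groups overlapped at both times, although each ratio was slightly below 0, and the log2 fold changes were -0.07 (limma, SE 0.07, 95% CI -0.25 to 0.10, adjusted p = 0.683) and -0.05 (SE 0.07, 95% CI -0.24 to 0.14, adjusted p = 0.715). These intervals do not reach the Ero1b values of either time. At 5 days Prdx4 gave 3175, 3102 and 3626 under the control labels and 4045, 4415 and 3645 under the doxycycline labels. The groups did not overlap, as for 3.73% of probe sets with doxycycline higher, but the gap was narrow and the estimate of 0.29 failed the test (limma, SE 0.19, 95% CI -0.19 to 0.76, adjusted p = 0.935). With the first pair exchanged it was 0.06.

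Qsox1, the sulfhydryl oxidase, was represented by 1368023_at, with 201, 335 and 265 in controls and 207, 378 and 305 with doxycycline at 24 h. At 48 h the signals were 345, 263 and 265 against 339, 284 and 318. Treated and control cultures overlapped at both times. The log2 fold changes were 0.14 (limma, SE 0.07, 95% CI -0.05 to 0.33, adjusted p = 0.452) and 0.12 (SE 0.09, 95% CI -0.11 to 0.34, adjusted p = 0.458). At 5 days they were 206, 405 and 236 under the control labels and 294, 146 and 258 under the doxycycline labels, overlapping again, with a log2 fold change of -0.27 (SE 0.41, adjusted p = 0.940) and, with the first pair exchanged in all 18 arrays, of -0.62 (SE 0.24, adjusted p = 0.189).

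The second Qsox1 probe set, 1368024_at, had log2 fold changes of -0.23 and -0.09 at 24 h and 48 h and of -1.37 at 5 days (limma, adjusted p = 0.496, 0.836 and 0.935), below 0 where the first was above 0 at 24 h and 48 h. Its log2 ratios within experiments were scattered, at -0.50, -0.31 and 0.14 at 24 h and -0.78, 0.18 and 0.32 at 48 h. Its signal in the library with the high GAPDH ratio was 25, against 109 to 345 in the other 17 arrays, and that experiment alone had a log2 ratio of -3.36. The same library held the lowest value of the first Qsox1 probe set, 146. Whether RNA quality set these values was not tested.

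Gpx7 and Gpx8, the glutathione peroxidases of the ER, were at the bottom of the signal range and were not tested. Gpx7 lay between 6 and 73 signal units and was at the floor of 5.99 in 3 of 18 arrays. Gpx8 lay between 6 and 99 and was at the floor in 1. Control and treated groups overlapped for both genes at all 3 times, and the log2 ratios within experiments changed sign among the 3 experiments at each time. Their levels, and any response, were not measurable on these probe sets.

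The genes whose 9 log2 ratios were closest to those of Ero1b, out of 9076 tested genes compared, were Pdia6, a PDI family oxidoreductase, with a root mean square difference of 0.149, Hspa5 with 0.153 and Ostc, a subunit of the oligosaccharyltransferase, with 0.253. The measure does not change if a pair is exchanged. Pdia6 had log2 fold changes of 0.70 and 0.67 at 24 h and 48 h (limma, adjusted p = 0.0584 and 0.0242), and Hspa5 had 0.81 and 0.67 (adjusted p = 0.0554 and 0.0263). Ostc had 0.77 and 0.70 (adjusted p = 0.0439 and 0.0260). In the pair that went against its labels, Ero1b, Pdia6, Hspa5 and Ostc had ratios of -1.51, -1.51, -1.44 and -1.26, and Ero1a had -0.14. All of these values come from the same libraries, and the 3 genes were chosen by closeness to Ero1b over these same 9 ratios. Their likeness is therefore no separate evidence. It rested in part on 5 days, where the Ero1b ratios were largest, -1.51 in experiment 1 and 1.34 in experiment 2. Experiment 2 holds the library with the high GAPDH ratio, and there Pdia6, Hspa5 and Ostc had 1.08, 1.10 and 0.84.

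**Figure D3:**
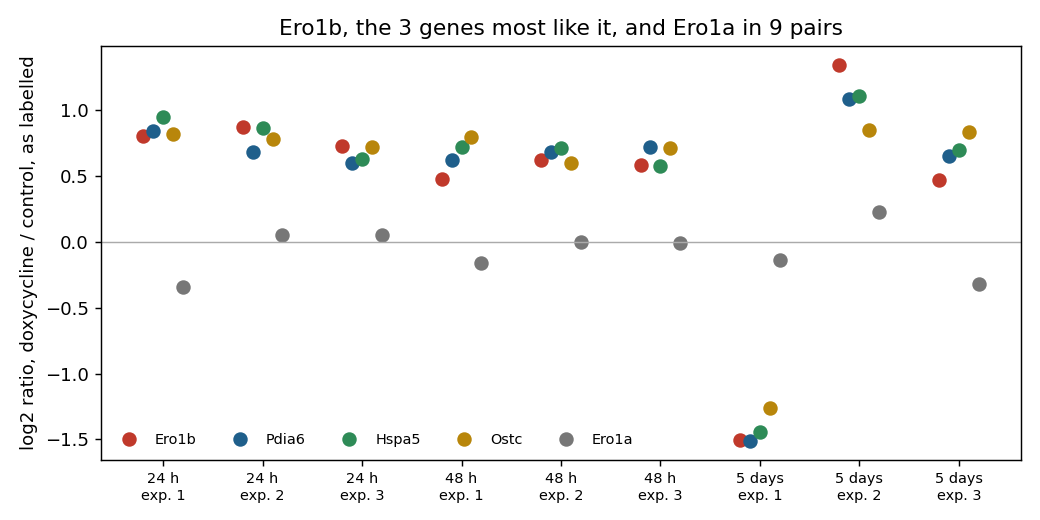
Log2 ratio of doxycycline to control as labelled (y axis) in each of the 9 pairs (x axis, 3 per time) for Ero1b, the 3 genes with the most similar ratios, and Ero1a. Pdia6, Hspa5 and Ostc lie near Ero1b because they were chosen for closeness over these same ratios. In experiment 1 of 5 days the 3 genes and Ero1b were at -1.51 to -1.26. Ero1a stays between -0.34 and 0.23.

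The closest genes to the other members were found in the same way. For Ero1a these were Isoc1 (root mean square difference 0.088), the RNA helicase gene Ddx51 (0.098) and the lysosomal arylsulfatase gene Arsa (0.10). For Prdx4 they were Rnf187 (0.061), Snap29 (0.068) and Zfp644 (0.071), and for Qsox1 they were Rita1 (0.167), Plcxd3 (0.169) and the transcription factor gene Klf6 (0.177). None of these 9 passed the test at 24 h or 48 h, with log2 fold changes from -0.13 to 0.17. Their likeness rested in part on experiment 2 of 5 days, which holds the library with the high GAPDH ratio. There Qsox1 had a log2 ratio of -1.47, with Rita1 at -1.33, Plcxd3 at -1.52 and Klf6 at -1.70. Prdx4 had 0.51 there, with Rnf187 at 0.47, Snap29 at 0.59 and Zfp644 at 0.46. The part of RNA quality in these values was not tested.

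Related genes were taken as lists, beginning with the PDI family and ER thioredoxin-like proteins. Being in that list does not mean that a protein, Creld2 included, passes electrons to ERO1. Of 20 genes of the PDI family and ER thioredoxin-like proteins, 19 were tested. At 24 h 1 of 19 rose, Creld2 (log2 fold change 1.51), beside 0.193% of all probe sets, and at 48 h 10 of 19, beside 2.33%, with none lower. At an unadjusted p under 0.05 in limma, 13 of 19 were higher at 24 h and 14 at 48 h, beside 7.75% and 12.2% of all probe sets, with 6.94% and 12.5% lower. The median log2 fold changes were 0.40 and 0.63, against -0.01 over all probe sets at both times. At 48 h the leading genes were the pancreatic isomerase Pdia2 (1.40), Creld2 (1.37) and Pdia4 (1.23), and P4hb, which encodes PDI itself, had 0.27 and 0.36 (limma, adjusted p = 0.223 and 0.0653). Ero1b lay above the median of this list at 24 h and below it at 48 h.

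Of 9 genes for other routes of thiol oxidation and FAD supply, 6 were tested and none passed in limma at either time, and medians were 0.08 and 0.22. At an unadjusted p under 0.05, 2 of 6 were higher at 24 h and 3 at 48 h, beside the 7.75% and 12.2% of all probe sets, numbers too small to read. The vitamin K epoxide reductase genes Vkorc1 (0.39) and Vkorc1l1 (0.29) and the second sulfhydryl oxidase gene Qsox2 (0.31) had the largest values at 48 h. Of 12 peroxiredoxin, glutathione peroxidase and catalase genes outside the ER, 7 were tested and 0 passed in limma, 1 of 7 being higher at an unadjusted p under 0.05 at each time, near the 7.75% and 12.2% of all probe sets, with medians of -0.03 and -0.01. The secreted peroxidase gene Gpx3 had the largest value at 48 h (0.39), followed by Prdx2 (-0.08) and Gpx4 (0.03).

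Of 14 genes of the thioredoxin and glutathione systems, 13 were tested and 0 passed, with medians of -0.03 and -0.07, while at an unadjusted p under 0.05 there were 2 of 13 lower at 24 h and 1 at 48 h, beside 6.94% and 12.5% of all probe sets, so that nothing is read from these counts. The glutaredoxin gene Glrx (-0.27), the sulfiredoxin gene Srxn1 (-0.17) and the glutathione synthetase gene Gss (0.16) had the largest sizes at 48 h. Of 15 hypoxia-inducible genes, the class Ero1a is known to belong to, 12 were tested, with 0 passing at 24 h and 2 at 48 h, Ankrd37 (0.57) and P4ha1 (0.44), both higher, beside 2.33% of all probe sets. At an unadjusted p under 0.05, 2 of 12 were higher at 24 h, and 6 were higher and 1 lower at 48 h, beside 7.75% higher, 12.2% higher and 12.5% lower of all probe sets. The latter encodes a subunit of the collagen prolyl hydroxylase. The third largest was the pyruvate dehydrogenase kinase gene Pdk1 (0.38), and the medians were 0.09 and 0.27.

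All 10 UPR reference genes were tested, of which 3 rose at 24 h and 9 at 48 h, beside 0.193% and 2.33% of all probe sets, with medians of 0.98 and 1.33. Beside Ero1b at 0.80 and 0.56 on the log2 scale, Sdf2l1 had 1.99 and 1.86, the pro-apoptotic factor gene Ddit3 had 1.39 and 1.76, Atf4 had 0.97 and 1.37, and Trib3, a target of both, had 2.19 and 3.85. Herpud1, a component of ER-associated degradation, had 1.22 and 1.80. At 24 h Sdf2l1 passed the test. Ddit3, Atf4, Trib3 and Herpud1 did not pass at that time (limma, adjusted p = 0.0571, 0.149, 0.193 and 0.153). The 24 h log2 ratios of Trib3 ran from 0.49 to 3.48 over the 3 experiments. At 48 h each of these genes passed. At 5 days as labelled 0 genes of any of the 6 lists passed, at the adjusted or the unadjusted threshold. With the first pair exchanged in all 18 arrays, 10 of 19 of the PDI family and 5 of 10 UPR reference genes were called higher in limma, beside 1.83% of all probe sets, and 0 genes of the other lists were called in either direction. These counts too are a description, since genes of this response served to judge the pair.

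**Figure D4:**
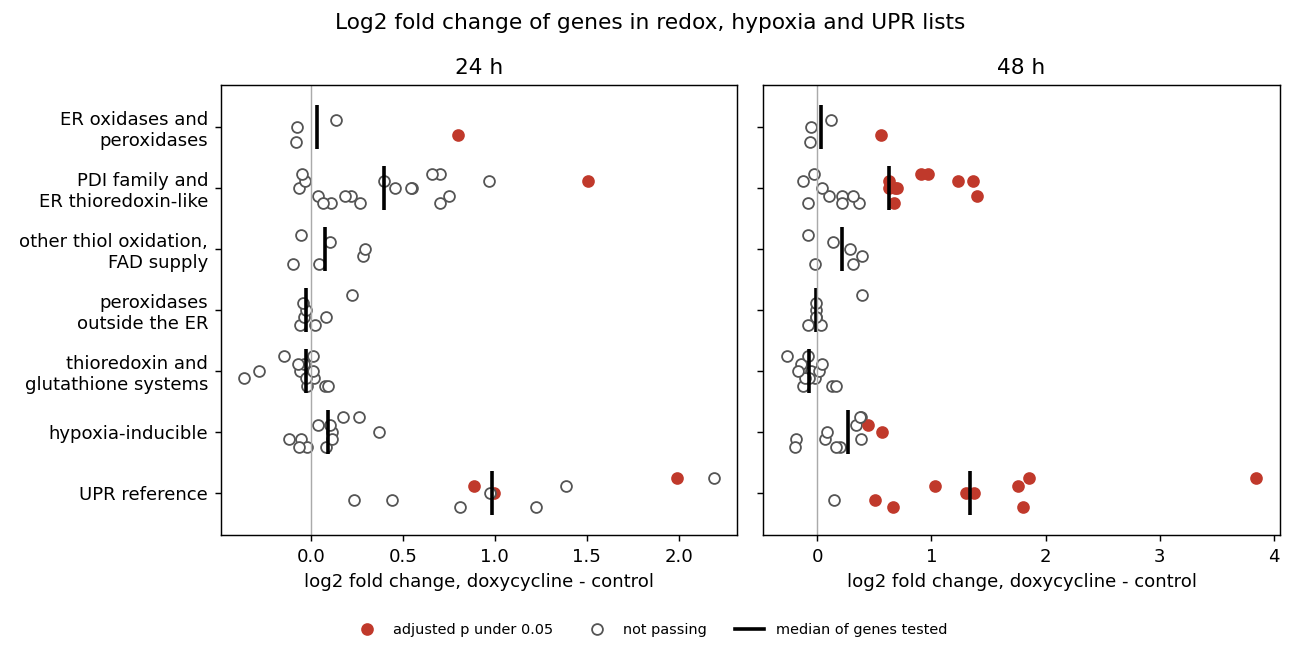
Log2 fold change of doxycycline over control (x axis) at 24 h and 48 h for the 4 member genes tested and for each tested gene of 6 lists (y axis), filled where the limma adjusted p was under 0.05, with a bar at each median. Ero1b is the filled point of the top row (0.80 and 0.56), and the PDI family (median 0.63 at 48 h) and the UPR reference genes (median 1.33) lie to the right. The peroxidase and glutathione lists have medians near 0, with single genes from -0.36 (Gsr, 24 h) to 0.39 (Gpx3, 48 h).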

How the data were processed

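The authors ran total RNA of clone #4S2 on Affymetrix rat arrays and deposited an intensity on a linear scale for each probe set, scaled so that the 2% trimmed mean of each array is 500.14 to 500.17, while array medians run from 91.2 to 138.5. The study analysed its arrays in GeneSpring, and its methods do not name the program that computed these intensities from the scans. Samples were grouped from their labels. Intensities were quantile normalized, floored at the 10th percentile (5.99), and log2 transformed. The floor compresses only ratios in which a value fell below it. Control probe sets (57) were left out and the 15521 of 31042 with the highest mean signal (50%) were tested in limma 3.58.1 (R 4.3.3), each time separately, with the experiment as a block and Benjamini-Hochberg adjustment at 0.05. Fold changes and ratios compare the signal of 1 probe set between arrays. Signals of different probe sets were set against each other for the filter, the choice of the brightest set and the marker levels and sums. Such comparisons do not measure RNA amounts between genes.

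Same-numbered arrays were taken as 1 experiment, as the study lists ratios per experiment. Their deviations from the group means correlated at 0.484 to 0.667 at 24 h, 0.256 to 0.578 at 48 h and 0.109 to 0.149 at 5 days. A gene is represented by its brightest probe set, 20826 probe sets naming 1 gene, 436 several and 9780 none, and 20758 of the first matched RefSeq. The 3 closest genes and the 3 largest of each list were named by rule. Members and lists were chosen with earlier results of these data known. The limma steps were tested on simulated data, where false calls ran above the nominal share, more so at 24 h. With 3 arrays per group the number of arrays limits the precision. Some listed genes, Rfk, Prdx1, Gpx5, Pcsk1 and Cdh5 among them, had no probe set of their own.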

Additional observations from a re-analysis of the deposited data

Results flagged for a closer look

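Prdx4 was flagged because its ratio was below 0 in all 3 experiments of 24 h and of 48 h and above 0 in all 3 of 5 days as labelled. The 5 day effect exceeded that of 24 h by 0.36 on the log2 scale (limma, SE 0.18, adjusted p = 0.848) and that of 48 h by 0.34 (SE 0.18, adjusted p = 0.799), neither of which passed, and 1 of the 3 pairs went against its labels.

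The dimmer Ero1a probe set was flagged for ratios above 0 in all 3 experiments at 24 h and below 0 in all 3 at 5 days. The difference of -0.74 (limma, SE 0.24, adjusted p = 0.848) did not pass.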

How the results depend on the processing

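Of the member genes, 1 was called at 24 h and 1 at 48 h. That count was 0 at both times with no filter on low signal, with the upper 75% of probe sets tested, in all 18 arrays with 9 pairs, with no replicate block, with the methods' t-test on the same values, with the mean of all probe sets of a gene, and, ranging from 0 to 0, without each replicate. It stayed at 1 with the intensities as deposited, no floor, a floor of 32 and the 12 arrays of 24 h and 48 h, where Ero1b had adjusted p = 0.00498 and 0.00560 in limma. The filter settings test more probe sets and the leave-out settings use fewer samples. With no filter the 24 h log2 fold change of Ero1b was the same, with an SE of 0.065 against 0.073. What moved the adjusted p was not tested in any of these settings. The Ero1b adjusted p at 24 h and 48 h was 0.557 and 0.344 with no filter, 0.403 and 0.223 with 75%, 0.657 and 0.225 in the methods' t-test after Benjamini-Hochberg, and 0.200 and 0.242 for the mean of probe sets. Without the replicate pairing it was 0.329 and 0.112, the log2 fold changes being the same.

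At 5 days the count was 0 as labelled and 1 (Ero1b) with the first pair exchanged in 18 arrays and, an alternative chosen after seeing the data, also without the second pair, both conditioned on Ero1b's own ratio. The mean difference between Ero1b and Ero1a ranged from 0.670 to 0.780 on leaving out 1 pair, with exact p = 0.0625. Values that changed sign, none of them past the threshold on either side, were at 24 h Ero1a at 0.032 and Qsox1 at -0.043 with the mean of probe sets. On leaving out 1 replicate, Ero1a ranged from -0.15 to 0.050 at 24 h. At 5 days such ranges were -0.23 to 0.043 for Ero1a, -0.52 to 0.90 for Ero1b and -0.67 to 0.32 for Qsox1, with Ero1b at -0.52 and Qsox1 at 0.32 without replicate 2 and Ero1b at -0.082 without replicate 3. With the pair exchanged Ero1a was at 0.014, and Prdx4 was at -0.17 without the second pair as well. For the 5 day effect minus that of 48 h, Ero1a was at 0.074 and Ero1b at 0.55 with the pair exchanged. For untreated cultures, leaving out 1 array gave -0.029 to 0.12 for Prdx4 and -0.046 to 0.32 for Qsox1.

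Signal over background limited Gpx7, Gpx8 and the second Ero1b probe set. With 3 arrays per group, small changes could not be told from 0.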
